A study of Mus musculus with 12 samples.

Results

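Matrix metalloproteinases (MMPs) were followed at the transcript level in control and senescent fibroblasts, with and without BMAL1. The 10 genes described are Mmp2, Mmp3, Mmp9, Mmp10, Mmp11, Mmp13, Mmp14, Mmp17, Mmp19 and Mmp23, taken by name from 49315 annotated genes in the count tables. The annotation lists 23 genes of the family, and the other 13 are described briefly after these 10. RNA-seq had been run on 12 libraries of primary mouse adult fibroblasts (MAFs), which the study grew from digested ear tissue of adult female mice. WT cells came from C57BL/6 mice and KO cells from Bmal1-/- animals, which lack a core transcription factor of the circadian clock. Control cells of each genotype were sham irradiated, whereas senescent cells had received 20 Gy of X-rays and, per the study's methods, further days of culture after it. No such period is given for control cells, so irradiation and time in culture cannot be told apart. All 4 groups were exposed to 100 nM dexamethasone, a glucocorticoid that resets the clock, were grown in low oxygen and were collected 12 h afterwards. Each group held 3 libraries. The labels do not say whether they came from separate animals or cultures, so p-values measure only the spread between these libraries.

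MMPs are zinc-dependent enzymes that cut proteins of the extracellular matrix and of the cell surface. Most are made as inactive precursors, are activated by removal of a propeptide, and are held in check by the tissue inhibitors of metalloproteinases (TIMPs). Stromelysins, collagenases and gelatinases are secreted, while membrane-type MMPs stay at the cell surface. MMPs are also known components of the secretory phenotype of senescent fibroblasts, and the AP-1 factor (JUN and FOS proteins) is a classical regulator of Mmp3, Mmp10 and Mmp13.

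The catalytic zinc is held by a short motif that the family shares. The coding sequence of that motif is shown for the 6 genes on which the results below turn, to show what the proteins have in common and how close Mmp3 and Mmp10 are. Each is 33 bases long, read 5′ to 3′ on the coding strand from GRCm38. Capitals mark the codons of the first histidine, the glutamate and the other two histidines. The sites lie in exon 5 of 10 for Mmp3 (chr9:7449775-7449807, plus strand), Mmp10 (chr9:7504858-7504890, plus strand), Mmp13 (chr9:7276573-7276605, plus strand) and Mmp14 (chr14:54437627-54437659, plus strand). They lie in exon 8 of 13 for the gelatinases Mmp2 (chr8:92839279-92839311, plus strand) and Mmp9 (chr2:164951133-164951165, plus strand).
Mmp3: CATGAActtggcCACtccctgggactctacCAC
Mmp10: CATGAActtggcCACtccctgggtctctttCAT
Mmp13: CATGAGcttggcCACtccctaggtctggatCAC
Mmp2: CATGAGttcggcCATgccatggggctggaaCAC
Mmp9: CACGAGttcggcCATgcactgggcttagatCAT
Mmp14: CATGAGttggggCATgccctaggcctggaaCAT
Mmp3 and Mmp10 differed at 4 of these 33 bases, whereas Mmp3 and Mmp9 differed at 13. Over the whole coding sequence, Mmp3 and Mmp10 were identical at 79.3% of the bases of the longer one. Of all stretches of 50 bases in the exons of Mmp3, 8.39% also occur in another gene, as do 8.37% of those of Mmp10. Only uniquely mapped reads were counted. How many reads of these genes were lost to shared stretches was not measured.

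Mmp13, Mmp3 and Mmp10 lie in a cluster of 10 MMP genes on chromosome 9 that spans 427 kb, with other MMP genes between them. RefSeq promoters, from 250 bases before to 50 bases after the start site, were matched for 6 of the 10 genes on GRCm38.p6. Mmp2, Mmp9, Mmp17 and Mmp19 had no entry. The AP-1 motif TGAGTCA (on the other strand it reads as TGACTCA) was found once each in the promoters of the 3 clustered genes, and the stretch around it is shown because the study examined AP-1. The windows printed are chr9:7445751-7445807 for Mmp3, chr9:7502254-7502310 for Mmp10 and chr9:7272454-7272510 for Mmp13, all read on the plus strand, on which these genes lie. Capitals mark the motif.
Mmp3: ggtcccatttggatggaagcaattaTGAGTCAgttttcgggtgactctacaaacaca
Mmp10: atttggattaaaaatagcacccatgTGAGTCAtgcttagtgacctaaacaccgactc
Mmp13: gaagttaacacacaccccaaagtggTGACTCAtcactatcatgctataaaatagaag
The first base of the motif lay at -46 from the start site in Mmp3, at -63 in Mmp10 and at -35, in the opposite orientation, in Mmp13. The promoters of Mmp11, Mmp14 and Mmp23 did not hold these letters, and 5.2% of 32851 promoters of the same length did. The E-box CACGTG, the canonical site of BMAL1, occurred in none of the 6 promoters and in 7.15% of all. These matches describe letters in a window and do not show binding.

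Total counts were 23923030 to 31736083 per library, so that 3 counts, taken as a detection floor, equalled 0.0945 to 0.125 counts per 1000000 counts of the library (CPM). Floors and intervals of this kind cover counting error only. Arntl, the gene of BMAL1, averaged 31.5 CPM in WT control, 36.1 in WT senescent, 13.2 in KO control and 26.6 in KO senescent cells. All KO values of Arntl lay under all WT values, although its reads were still counted in every KO library. The fibroblast markers Col1a1, Col1a2, Pdgfra and Vim were detected in every library. The summed level of 8 fibroblast genes was lower with senescence. It was 16271 to 16659 CPM in WT control against 8143 to 8393 in WT senescent libraries. In KO cells it was 20404 to 20906 CPM in control against 10149 to 10619 in senescent libraries. This sum is weighted to its highest genes, such as Col1a1, at 7323 CPM on average in WT control and 1750 in WT senescent cells. Gene by gene, in the edgeR test described below (adjusted p under 0.05), 5 of the 8 rose and 3 fell in WT cells. In KO cells 3 rose and 4 fell. Of all genes tested, 29.2% rose and 27.0% fell in WT, and 28.5% and 28.6% in KO cells. The 7 keratinocyte markers summed to little, but the sum was higher with senescence. It was 10.7 to 15.3 CPM against 21.2 to 24.5 in WT and 12.1 to 12.7 against 19.1 to 20.6 in KO cells. Of the 5 that could be tested, 4 rose in WT, and 4 rose and 1 fell in KO cells. The one that fell was Trp63, from 8.39 to 3.37 CPM on average in KO cells (log2 fold change -1.32, SE 0.14). Cartilage markers were abundant as well: the summed level of 11 chondrocyte genes was 9212 to 11445 CPM in WT control, 2838 to 3290 in WT senescent, 6265 to 8769 in KO control and 947.5 to 1154 in KO senescent libraries. The sum was lower with senescence in both genotypes and lower in KO than in WT in both states. It is weighted to genes such as Col2a1, at up to 5563 CPM. Of the 10 that could be tested, 1 rose and 9 fell with senescence in WT, and 9 fell in KO cells. Against WT, 2 of the 10 were lower in KO control cells and 10 in KO senescent cells, beside 4.96% and 11.8% of all genes. The part of the fibroblast, keratinocyte and chondrocyte sums in the MMP results was not tested. In bulk RNA, fewer cells of a type and less RNA per cell cannot be told apart. The 6 neutrophil markers, which bear on Mmp9, summed to at most 0.618 CPM, and S100a9, Mpo and Retnlg were at 0 in all 12 libraries. S100a8, Elane and Ly6g reached at most 0.502, 0.154 and 0.101 CPM. The sum was higher with senescence, at 0 to 0.0402 CPM in WT control against 0.272 to 0.386 in WT senescent libraries. In KO cells it was 0 to 0.2 CPM in control against 0.319 to 0.618 in senescent libraries. None of the 6 could be tested, and the part of this sum in the Mmp9 result was not tested. The 7 macrophage markers summed to 6.32 to 14.4 CPM, with overlap between all 4 groups. Of the 3 that could be tested, only 1, Lyz2, passed that test with senescence, in both genotypes. Lyz2 averaged 0.351 CPM in WT control, 1.97 in WT senescent, 0.191 in KO control and 2.86 in KO senescent libraries. It rose in WT (log2 fold change 2.43, SE 0.46, adjusted p 0.00017) and in KO cells (3.86, SE 0.49, adjusted p 1.66e-06). Its control libraries held 1 to 19 counts in WT and 4 to 6 in KO cells, near the floor, so these folds are uncertain. Its part in the Mmp9 result was not tested.

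All 10 genes passed the filter on low counts, but their levels spanned more than 2 orders of magnitude. CPM values of genes and marker sums, above and below, use library sizes scaled by TMM (trimmed mean of M-values). The detection floor used unscaled total counts. Below, levels of different genes are compared only per length, as CPM per kilobase of exon (RPKM). In WT control cells Mmp2 (73.9 RPKM) and Mmp14 (72.2 RPKM) were highest, and their libraries overlapped. Mmp3 (19.3 RPKM) and Mmp23 (17.1 RPKM), next in order, also overlapped. Mmp19 (8.25 RPKM) and Mmp11 (3.32 RPKM) followed without overlap, and Mmp10, Mmp9, Mmp17 and Mmp13 were all below 1 RPKM. In KO control cells the order of the first 6 genes was the same, but Mmp2 (126 RPKM) now stood clear of Mmp14 (87.1 RPKM).

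Senescence changed this order. Mmp3 moved above Mmp14 into second place in both genotypes, at 61.1 RPKM against 54.6 RPKM in WT cells and at 106 RPKM against 53.6 RPKM in KO cells. Mmp13 moved from last to seventh place in both, where its libraries overlapped those of the next gene. As a share of the summed RPKM of the 10 genes, Mmp3 went from 9.84% ± 0.925 to 22.1% ± 0.873 in WT cells and from 8.82% ± 0.677 to 32.7% ± 1.70 in KO cells (SD, n = 3). Mmp14 went from 36.9% ± 1.07 to 19.8% ± 0.159 in WT and from 31.3% ± 0.902 to 16.6% ± 0.316 in KO cells. Mmp2 held the largest mean share in each group, between 37.7% and 46.5%.

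**Figure D1:**
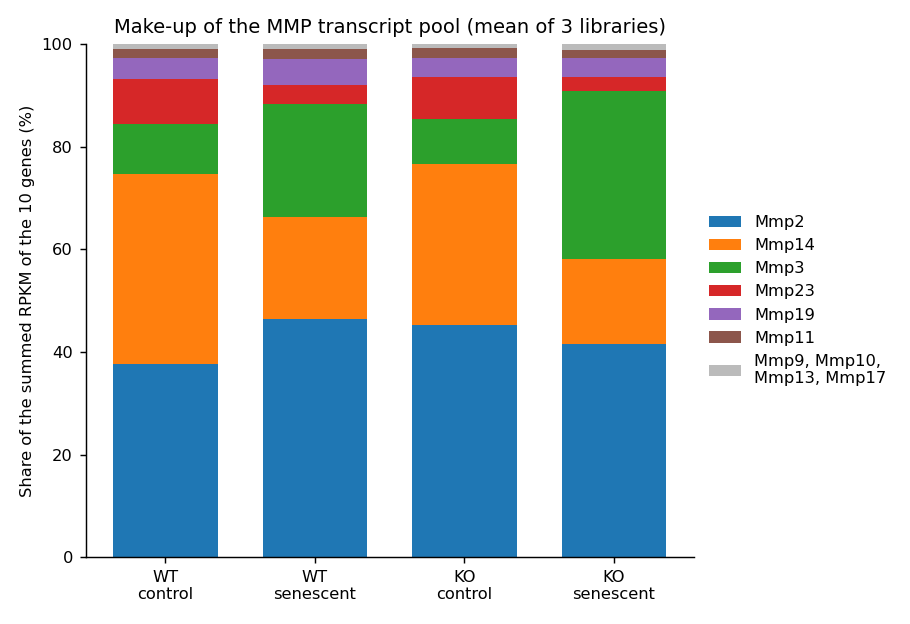
Share of each gene in the summed RPKM of the 10 MMP genes (%, vertical axis) in the 4 groups (horizontal axis), as means of 3 libraries. The Mmp3 share rises from 9.84% to 22.1% in WT and from 8.82% to 32.7% in KO cells, while the Mmp14 share falls in both.

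The 5 comparisons were then tested over 17416 genes: senescent against control in WT, the same in KO, the difference between these 2 responses (the interaction), and KO against WT in control and in senescent cells. A gene is said to have passed where edgeR's quasi-likelihood (QL) adjusted p was under 0.05, and it is called a differentially expressed gene (DEG) where the log2 fold change was also over 1 in size, the study's threshold. All adjusted p-values below come from this test. In WT cells 5 of the 10 genes rose and 3 fell with senescence, and of all genes tested 29.2% rose and 27.0% fell, 56.2% together. In KO cells 4 rose and 3 fell, beside 28.5% and 28.6% of all genes, 57.1% together. DEGs numbered 2 in WT cells, both higher, beside 11.6% of all genes called higher and 5.90% lower (17.4% together). In KO cells 3 were called higher and 2 lower, beside 11.2% and 7.58% of all genes (18.8% together). Libraries of the 2 states did not overlap for 8 of the 10 genes in each genotype, beside 63.2% of all genes in WT and 61.6% in KO cells. The median log2 fold change of the 10 genes was 0.49 in WT and 0.16 in KO cells, against 0.02 and -0.00 over all genes tested.

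The interaction passed for 7 of the 10 genes, beside 20.9% of all genes. The response was the more positive in KO cells for 2 and the more negative for 5, beside 9.24% and 11.7% of all genes. The median difference of the responses was -0.34 for the 10 genes and -0.03 over all genes. Mmp9 alone among the 10 was a DEG of the interaction, in the higher direction, beside 1.15% of all genes called higher and 2.51% lower (3.66% together).

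In control cells 6 of the 10 genes were higher in KO than in WT and none lower, beside 8.07% of all genes that were higher and 4.96% lower (13.0% together). None was a DEG, beside 1.36% of all genes called higher and 1.18% lower (2.54% together). In senescent cells 2 were higher and 1 lower in KO, beside 11.9% and 11.8% of all genes (23.7% together). Mmp9 was the only DEG there, beside 1.29% of all genes called higher and 2.19% lower (3.48% together). Libraries of the 2 genotypes did not overlap for 6 of the 10 in control and for 4 in senescent cells, beside 25.9% and 42.0% of all genes. The median KO against WT difference was 0.32 in control and 0.08 in senescent cells, against 0.01 and -0.02 over all genes. Because the counts of each genotype were deposited as a separate table, genotype and table-specific handling cannot be told apart in KO against WT. The interaction is free of any offset that all 6 libraries of a genotype share.

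**Figure D2:**
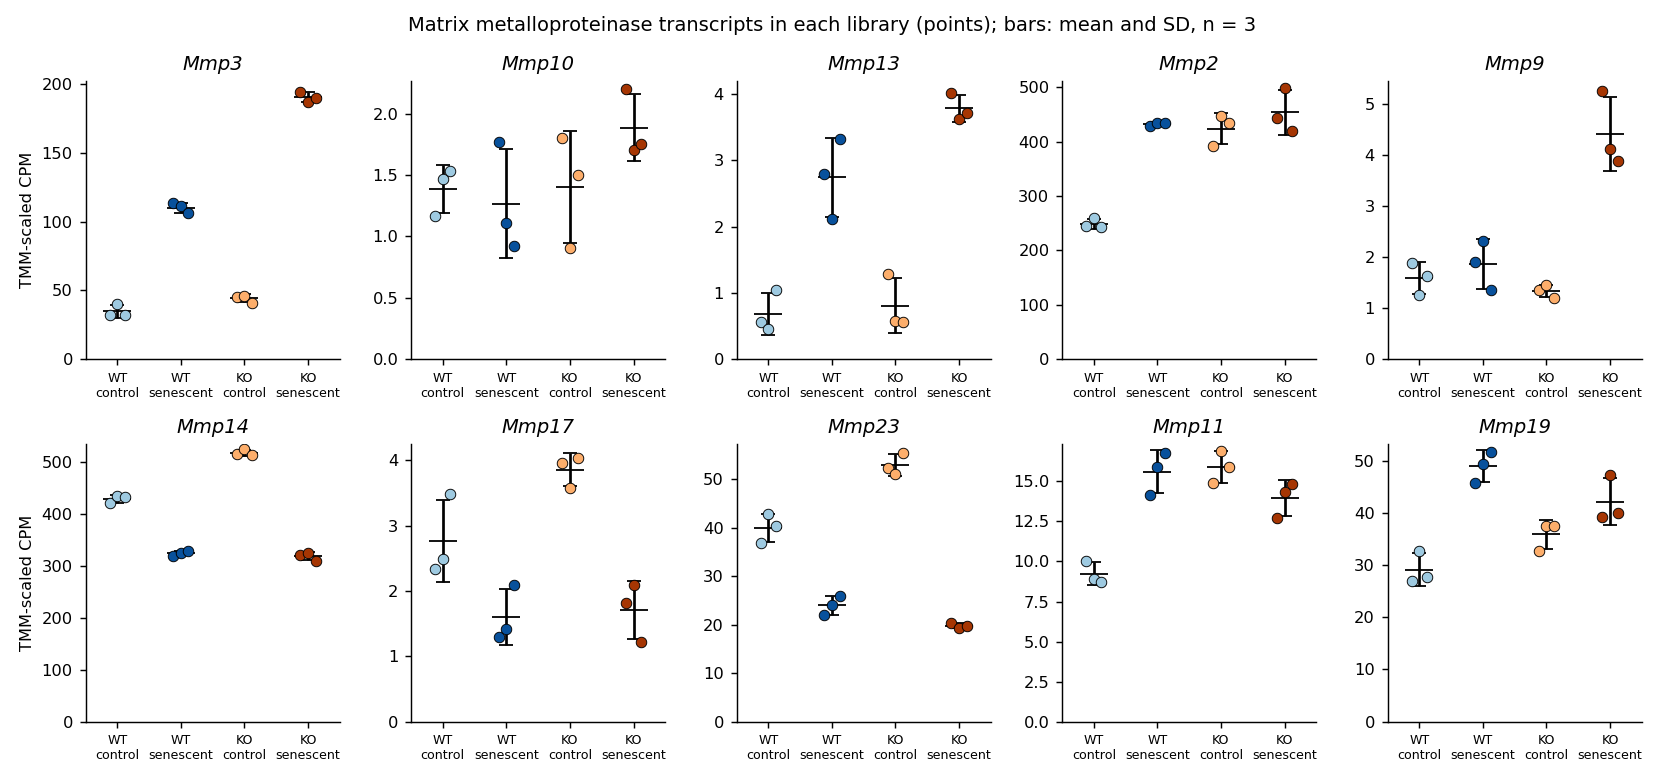
Level of each gene (TMM-scaled CPM, vertical axes from 0, a separate scale per panel) in each library (points) of the 4 groups, with the mean and SD (bars, n = 3). Mmp3 and Mmp13 are higher in all senescent libraries than in all control libraries, whereas Mmp9 is high in the KO senescent libraries, at 3.88 to 5.25 CPM.

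Mmp3 (stromelysin-1, ENSMUSG00000043613, chromosome 9, 7445822 to 7455975) degrades proteoglycans and non-fibrillar matrix proteins and activates other MMP precursors. It measured 31.8, 40.3 and 32.4 CPM in the WT control libraries (replicates 1 to 3, as in all such lists) and 113, 111 and 106 CPM in the WT senescent ones. In KO cells it measured 45.5, 46.0 and 40.8 CPM in control and 194, 187 and 190 CPM in senescent libraries. The 4 groups did not overlap, and KO senescent cells were highest. The senescence log2 fold change was 1.66 in WT (SE 0.07, adjusted p 8.33e-14) and 2.11 in KO cells (SE 0.07, adjusted p 1.47e-15). The response was thus larger in KO cells, by 0.45 (SE 0.10, adjusted p 0.00339). KO exceeded WT by 0.34 in control cells (SE 0.07, adjusted p 0.00368) and by 0.79 in senescent cells (SE 0.07, adjusted p 5.79e-08).

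Mmp13 (collagenase-3, ENSMUSG00000050578, chromosome 9, 7272514 to 7283331) cleaves fibrillar collagens, including the type II collagen of cartilage. Its level was low, at 0.563, 0.448 and 1.04 CPM in WT control and 2.79, 2.12 and 3.32 CPM in WT senescent libraries. KO control libraries had 1.28, 0.572 and 0.558 CPM and KO senescent libraries 4.01, 3.62 and 3.72 CPM. Every senescent library was above every control library, and counts per library ran from 11 to 110. Its log2 fold change with senescence was 2.01 in WT (SE 0.33, adjusted p 2.41e-05) and 2.23 in KO cells (SE 0.31, adjusted p 3.31e-06). The difference between the responses, 0.22, was smaller than its SE of 0.47 and did not pass (adjusted p 0.787). Neither genotype comparison passed, with adjusted p 0.746 in control and 0.242 in senescent cells.

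Mmp10 (stromelysin-2, ENSMUSG00000047562, chromosome 9, 7502352 to 7510240), the nearest relative of Mmp3, passed in none of the 5 comparisons. It was read at 1.17, 1.47 and 1.53 CPM in WT control, 1.77, 1.11 and 0.926 in WT senescent, 1.80, 0.909 and 1.503 in KO control and 2.20, 1.70 and 1.76 in KO senescent libraries. Libraries of the groups overlapped except for KO senescent against WT control. Its log2 fold changes with senescence were -0.12 in WT (SE 0.31, adjusted p 0.76) and 0.43 in KO cells (SE 0.30, adjusted p 0.221). They were nearer to 0 than those of Mmp3 and Mmp13 in the same cluster, a difference between genes that was not tested. Its interaction was 0.56 with an SE of 0.43 (adjusted p 0.394), an estimate no smaller than that of Mmp3. KO against WT was 0.01 in control cells (SE 0.31, adjusted p 0.994) and 0.56 in senescent cells (SE 0.30, adjusted p 0.185).

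Mmp2 (gelatinase A, ENSMUSG00000031740, chromosome 8, 92827291 to 92853420) digests denatured collagen and type IV collagen and is activated at the cell surface by MMP14 together with TIMP2. WT control libraries had 244, 260 and 244 CPM and WT senescent libraries 428, 435 and 435 CPM. KO control libraries had 392, 446 and 435 CPM and KO senescent libraries 443, 499 and 419 CPM. WT control cells therefore stood alone below the other three groups. Mmp2 rose in WT cells by 0.80 (log2, SE 0.06, adjusted p 5.32e-10), and the KO change of 0.10 did not pass (SE 0.06, adjusted p 0.184). The responses differed by -0.70 (SE 0.09, adjusted p 2.03e-05). KO control cells exceeded WT control cells by 0.77 (SE 0.06, adjusted p 1.91e-08), whereas in senescent cells the difference was 0.07 (SE 0.06, adjusted p 0.457). The KO change passed on total counts without TMM, at 0.25 (adjusted p 0.00133), and without KO senescent replicate 3, at 0.15 (adjusted p 0.0455).

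Mmp9 (gelatinase B, ENSMUSG00000017737, chromosome 2, 164940780 to 164955850), the other type IV collagenase, is best known from neutrophils, macrophages and osteoclasts. It was read at 1.89, 1.26 and 1.63 CPM in WT control and 1.91, 2.32 and 1.35 CPM in WT senescent libraries. In KO cells the values were 1.36, 1.45 and 1.20 CPM in control and 5.25, 4.11 and 3.88 CPM in senescent libraries. The KO senescent libraries, with 115 to 136 counts each, lay above all others, and the other three groups overlapped. Mmp9 rose in KO cells by 1.71 (log2, SE 0.24, adjusted p 3.16e-06), while the WT value was 0.23 (SE 0.25, adjusted p 0.457). The responses differed by 1.48 (SE 0.35, adjusted p 0.0044). KO exceeded WT by 1.24 in senescent cells (SE 0.23, adjusted p 0.000427), and the control difference of -0.25 did not pass (SE 0.26, adjusted p 0.61). The gelatinases therefore differed by genotype in opposite directions, Mmp2 with the lower and Mmp9 with the higher response in KO cells.

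**Figure D3:**
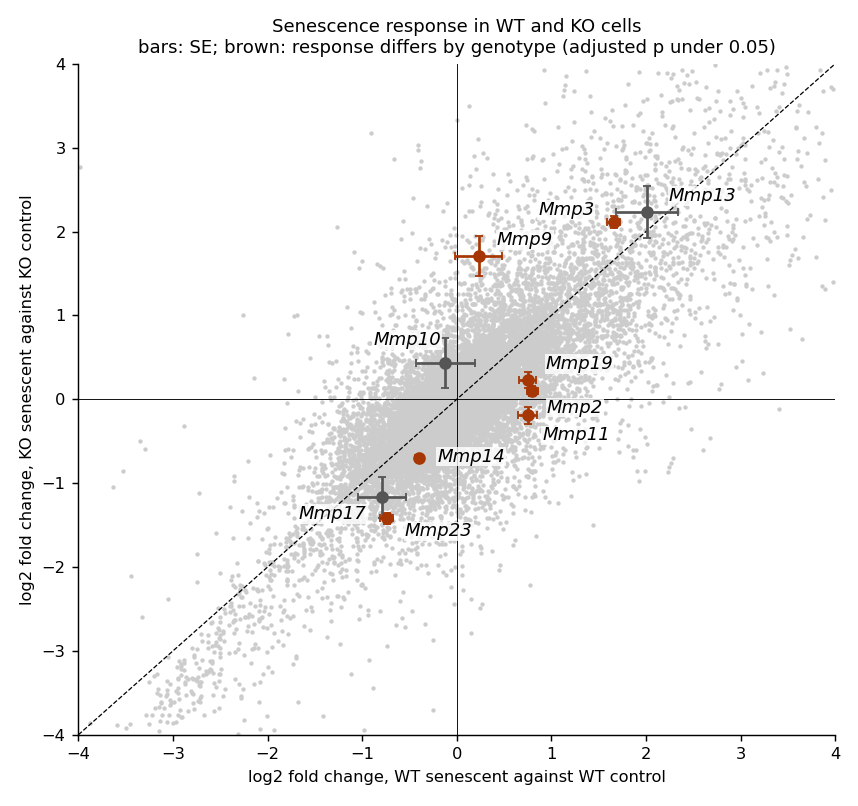
Senescence log2 fold change in WT (horizontal axis) and in KO cells (vertical axis) for genes tested (grey) and the 10 MMP genes (points with SE bars), with the line of equal response dashed and both axes cut at 4 log2 units on either side. Brown points mark the 7 genes whose responses differed by genotype: Mmp9 (0.23 in WT, 1.71 in KO) and Mmp3 lie above the line, and the others lie below it.

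Mmp14 (MT1-MMP, ENSMUSG00000000957, chromosome 14, 54431612 to 54445364) is a transmembrane collagenase and the main activator of the MMP2 precursor. It was read at 421, 436 and 434 CPM in WT control and 320, 326 and 330 CPM in WT senescent libraries. In KO libraries it was at 516, 525 and 515 CPM without and 322, 326 and 311 CPM with senescence. Control libraries were higher than senescent ones in both genotypes, KO control highest, and the senescent libraries of the 2 genotypes overlapped. Mmp14 fell by 0.40 in WT (log2, SE 0.04, adjusted p 1.18e-07) and, in KO cells, by 0.70 (SE 0.04, adjusted p 2.22e-11). The interaction was -0.30 (SE 0.06, adjusted p 0.00232). KO exceeded WT by 0.27 in control cells (SE 0.04, adjusted p 0.000249), and the senescent difference was -0.02 (SE 0.04, adjusted p 0.736).

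Mmp23 (ENSMUSG00000029061, chromosome 4, 155650655 to 155653384) encodes a small MMP anchored in the membrane by its amino-terminal end. WT control libraries had 36.9, 42.8 and 40.2 CPM and WT senescent libraries 22.0, 23.97 and 25.9 CPM. KO control libraries had 52.4, 51.0 and 55.5 CPM and KO senescent libraries 20.3, 19.4 and 19.7 CPM. The 4 groups did not overlap, and KO cells held both the highest and the lowest. Mmp23 fell by 0.74 in WT (log2, SE 0.07, adjusted p 2.45e-08) and, in KO cells, by 1.42 (SE 0.07, adjusted p 7.49e-13), and the interaction was -0.68 (SE 0.10, adjusted p 0.000133). KO exceeded WT by 0.41 in control cells (SE 0.07, adjusted p 0.000457) and was lower by 0.28 in senescent cells (log2 fold change -0.28, SE 0.08, adjusted p 0.0108). The latter did not pass without WT senescent replicate 3 (adjusted p 0.0813).

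Mmp17 (MT4-MMP, ENSMUSG00000029436, chromosome 5, 129584169 to 129611099) is held at the cell surface by a lipid anchor. It was low, at 2.33, 2.48 and 3.48 CPM in WT control and 1.29, 1.41 and 2.08 CPM in WT senescent libraries. In KO cells it was read at 3.96, 3.57 and 4.04 CPM in control and 1.81, 2.09 and 1.22 CPM in senescent libraries. Control libraries lay above senescent ones within each genotype, and the senescent libraries of both genotypes overlapped. Mmp17 fell by 0.79 in WT (log2, SE 0.25, adjusted p 0.0107) and, in KO cells, by 1.17 (SE 0.24, adjusted p 0.000315). The interaction of -0.38 did not pass (SE 0.35, adjusted p 0.486), nor did KO against WT in control cells, at 0.48 (SE 0.24, adjusted p 0.201), or in senescent cells, at 0.10 (SE 0.26, adjusted p 0.822). The WT fall did not pass without WT control replicate 3 (adjusted p 0.0608) or WT senescent replicate 1 (adjusted p 0.0563), and without WT senescent replicate 3 it reached -1.02. Without KO senescent replicate 3 the KO change was -0.98, short of the DEG threshold.

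Mmp11 (stromelysin-3, ENSMUSG00000000901, chromosome 10, 75923222 to 75936496) is activated inside the cell by furin and is known from stromal cells around tumours. It was read at 10.1, 8.92 and 8.71 CPM in WT control and 14.2, 15.9 and 16.8 CPM in WT senescent libraries. KO control libraries had 14.9, 16.9 and 15.9 CPM and KO senescent libraries 12.7, 14.3 and 14.9 CPM. As for Mmp2, the WT control libraries stood below all others. Mmp11 rose in WT cells by 0.75 (log2, SE 0.10, adjusted p 1.9e-06), while the KO value of -0.19 did not pass (SE 0.10, adjusted p 0.11). The interaction was -0.94 (SE 0.14, adjusted p 0.000115) and reached -1.01 without WT control replicate 1 and without WT senescent replicate 1. KO exceeded WT by 0.78 in control cells (SE 0.10, adjusted p 1.69e-05) and differed by -0.16 in senescent cells (SE 0.10, adjusted p 0.267). Exons of Chchd10, on the opposite strand, overlap 155 bases (5.58%) of the Mmp11 exons, and Chchd10 had 10 to 70 counts per library.

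Mmp19 (ENSMUSG00000025355, chromosome 10, 128790910 to 128800824) is a secreted MMP that cuts basement membrane proteins. WT control libraries had 27.0, 32.7 and 27.7 CPM and WT senescent libraries 45.6, 49.4 and 51.6 CPM. KO control libraries had 32.7, 37.5 and 37.4 CPM and KO senescent libraries 39.2, 47.2 and 39.9 CPM. Senescent libraries were above control libraries in each genotype, by a wider margin in WT. Mmp19 rose by 0.75 in WT (log2, SE 0.09, adjusted p 3.03e-07) and, in KO cells, by 0.23 (SE 0.09, adjusted p 0.0265), and the interaction was -0.51 (SE 0.12, adjusted p 0.00498). The KO rise did not pass without KO control replicate 1 (adjusted p 0.127) or KO senescent replicate 2 (adjusted p 0.202). KO exceeded WT in control cells by 0.30 (SE 0.09, adjusted p 0.0278), a difference that did not pass without any one of KO control replicates 2 or 3 or WT control replicates 1 or 3 (adjusted p 0.0855 to 0.147), nor in a fit on the 6 control libraries (adjusted p 0.0627). The senescent difference of -0.21 had an adjusted p of 0.0715 (SE 0.08) and passed without KO control replicate 1 (adjusted p 0.0481), KO senescent replicate 2 (adjusted p 0.0151) or WT control replicate 2 (adjusted p 0.0439). Tmem198b on the opposite strand overlaps 789 bases (22.3%) of the Mmp19 exons and had 409 to 766 counts per library. Its counts were highest in KO control libraries, at 624 to 766, against 436 to 517 in WT control libraries. Senescent libraries had 417 to 473 in KO and 409 to 478 in WT cells. The part of Tmem198b in the Mmp19 differences between genotypes was not tested. The use of strand in counting is not given in the sources used here, so reads in the overlap cannot be assigned.

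**Figure D4:**
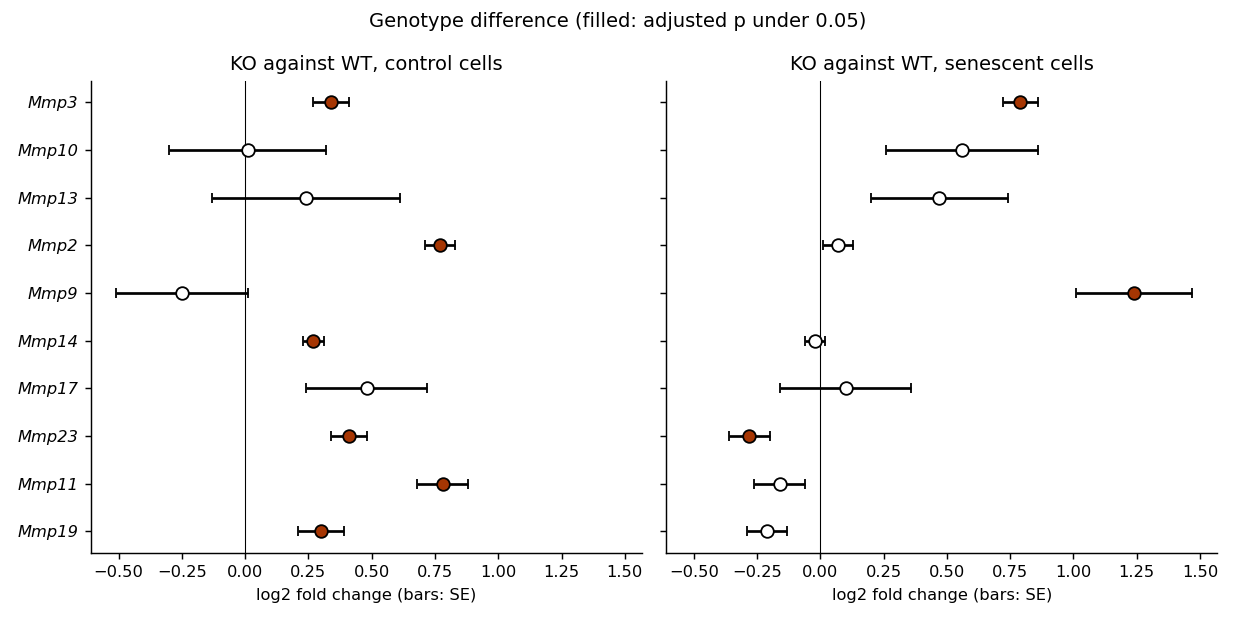
Log2 fold change of KO against WT (horizontal axes, bars are SE) for the 10 MMP genes in control cells (left) and in senescent cells (right), with filled points where the QL adjusted p was under 0.05. The 6 genes filled on the left are all above 0, and Mmp3, Mmp9 and Mmp23 are filled on the right, with Mmp23 below 0.

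The 5 genes with a more negative response in KO cells had one feature in common. Mmp2, Mmp11, Mmp14, Mmp19 and Mmp23 were each higher in KO than in WT control cells. In senescent cells the test between genotypes passed for 1 of these 5, Mmp23, where KO was lower. The interaction and both genotype comparisons share libraries, so these are not separate pieces of evidence. Of the 2 genes with the more positive response, Mmp3 was higher in KO in both states, and Mmp9 passed in senescent cells.

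Likeness across the 12 libraries was described by Pearson's r of log2 CPM. Mmp14 and Mmp23 were the most alike pair (r = 0.98), Mmp3 and Mmp13 reached 0.92, Mmp14 and Mmp17 0.92, and Mmp2 and Mmp11 0.90. Mmp3 and Mmp23 ran opposite (r = -0.91). These values share the 4 group means and the same libraries and carry no test. Among all genes tested, the one most like Mmp3 was Sqor (r = 0.995), for Mmp9 Cldn12 (0.975), for Mmp2 Pappa2 (0.985), for Mmp14 Sdc1 (0.994) and for Mmp23 Tmem26 (0.989). For Mmp13 it was Ghdc (0.990), for Mmp19 Nacc2 (0.986), for Mmp17 Zcchc14 (0.954), for Mmp11 Cilp (0.941) and for Mmp10 Sele (0.875).

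The counts of the lists that follow are to be read beside the shares of all genes given above, 29.2% higher and 27.0% lower with senescence in WT and 28.5% and 28.6% in KO cells. Of the 13 other MMP genes, 5 passed the low-count filter. With senescence 4 of these 5 rose in WT and 4 in KO cells, and none fell. Mmp15, another membrane-type MMP, rose by 2.29 in WT (log2, SE 0.18, adjusted p 6.43e-10) and, in KO cells, by 2.28 (SE 0.18, adjusted p 4.92e-10), opposite in direction to Mmp14. Mmp16, a further membrane-type MMP, rose by 0.44 in WT (SE 0.10, adjusted p 0.000635) and, in KO cells, by 0.31 (SE 0.09, adjusted p 0.0076). Mmp24, also membrane-bound, averaged 1.87 CPM in WT control, 1.69 in WT senescent, 0.777 in KO control and 3.66 in KO senescent cells. Like Mmp9 it was highest in KO senescent cells, and its interaction was 2.40 (SE 0.39, adjusted p 0.000234). Mmp28 rose by 1.01 in WT (SE 0.15, adjusted p 5.42e-06) and, in KO cells, by 0.95 (SE 0.14, adjusted p 5.82e-06). Its interaction of -0.07 did not pass (SE 0.20, adjusted p 0.862). Mmp8 passed in WT cells on 0 to 1 counts in control and 7 to 16 counts in senescent libraries, levels too low for a fold.

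Of 6 MMP inhibitors, all tested, 5 rose and 1 fell in WT cells, and 4 rose in KO cells. A2m, a plasma protease trap, rose by 3.04 in WT (log2, SE 0.20, adjusted p 1.23e-07) and, in KO cells, by 2.70 (SE 0.20, adjusted p 2.92e-07). Timp2, the partner of MMP14 in activating MMP2, rose by 0.85 in WT (SE 0.05, adjusted p 1.36e-11) and, in KO cells, by 0.94 (SE 0.05, adjusted p 2.61e-12). Reck, a membrane-anchored MMP inhibitor, averaged 89.6, 237, 78.5 and 94.1 CPM in WT control and senescent and in KO control and senescent cells, respectively. Its WT senescent libraries lay above all others, with an interaction of -1.14 (SE 0.29, adjusted p 0.0237), and that of Timp4 was -1.22 (SE 0.41, adjusted p 0.0396). Timp1 moved the other way, falling by 0.35 in WT (SE 0.07, adjusted p 0.000163) and rising by 0.17 in KO cells (SE 0.07, adjusted p 0.0329).

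Of 8 genes of MMP activation (proprotein convertases, plasminogen, its activators and the urokinase receptor Plaur, itself no protease), 7 could be tested, and of these 3 rose and 4 fell in WT, and 3 rose and 2 fell in KO cells. Pcsk5, a proprotein convertase, rose by 2.81 in WT (log2, SE 0.23, adjusted p 4.97e-06) and, in KO cells, by 1.35 (SE 0.22, adjusted p 0.000614). Plat, the tissue plasminogen activator, was higher in KO than in WT by 1.38 in control (SE 0.07, adjusted p 3.33e-11) and by 1.38 in senescent cells (SE 0.07, adjusted p 4.21e-11). Pcsk5 and Pcsk6, also a convertase, ran opposite in senescent cells, at -1.11 (SE 0.20, adjusted p 0.0042) and -1.25 (SE 0.09, adjusted p 1.86e-07). The Pcsk5 interaction was -1.46 (SE 0.31, adjusted p 0.0111). Of the 7, 1 was higher and 2 lower in KO control cells, beside 8.07% and 4.96% of all genes. In senescent cells 3 were higher and 2 lower in KO, beside 11.9% and 11.8% of all genes. Of 14 matrix substrates, 3 rose and 10 fell in WT, and 3 rose and 11 fell in KO cells. Among them Col1a1, a fibrillar collagen, fell by 2.06 in WT (SE 0.04, adjusted p 3.02e-18) and, in KO cells, by 1.66 (SE 0.04, adjusted p 2.76e-17). Dcn, a collagen-binding proteoglycan, rose by 3.37 in WT (SE 0.09, adjusted p 1.15e-15) and, in KO cells, by 3.44 (SE 0.09, adjusted p 6.82e-16).

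Of 7 AP-1 subunits, 2 rose and 2 fell with senescence in each genotype, 4 of 7 in all beside 56.2% and 57.1% of all genes. The interaction passed for 2 of 7, both more positive in KO cells, beside 20.9% of all genes in either direction and 9.24% more positive. Fos went the other way, falling by 0.90 in KO cells (SE 0.22, adjusted p 0.00253). Its interaction of -0.69 did not pass (SE 0.30, adjusted p 0.124). Fosl1 averaged 64.9, 71.3, 46.9 and 111 CPM in WT control and senescent and in KO control and senescent cells, respectively. Its responses differed by 1.11 (SE 0.15, adjusted p 0.000294), with a KO rise of 1.24 (SE 0.11, adjusted p 3.37e-07). Jun rose by 0.20 in WT (SE 0.06, adjusted p 0.00938) and, in KO cells, by 0.73 (SE 0.06, adjusted p 2.41e-09), a difference of 0.53 (SE 0.09, adjusted p 0.000319).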

How the data were processed

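The authors deposited raw, unnormalized read counts for each gene, as 1 table per genotype. Per the study's methods and the submitters' notes, reads were trimmed with Trimmomatic 0.36 and mapped to GRCm38 with STAR 2.5.2b, and featureCounts counted uniquely mapped reads in exons. Strand use and annotation release are not given in the sources used here. Symbols and coordinates came from GENCODE (49056 of 49315 identifiers matched).

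With edgeR 4.0.16 (R 4.3.3), genes passing filterByExpr were scaled by TMM over all 12 libraries and fitted with 1 mean per group by the robust QL method. Benjamini-Hochberg adjustment ran over all 17416 genes. The SE was the log2 fold change over the square root of F. The procedure was checked on simulated counts. RPKM used the exon length per gene. Coding identities came from pairwise alignment.

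The members and lists were chosen with earlier results of these data known. Genes named beside the 10 were taken from the 3 called genes with the largest change per list and comparison. Not all of these are named. Genes overlapping a member and the one most like each member are named as well. Mmp16, Timp1, Timp2, Jun, Fos and the markers named were chosen after their values were seen. Alternatives were other scalings, DESeq2 1.42.0, no filter, glmTreat, separate fits, replicate blocks and leaving out each library. Total counts without TMM was added after seeing the data. No library was left out of the main test.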

Additional observations from a re-analysis of the deposited data

Results flagged for a closer look

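For 7 of the 10 genes the senescence response differed between the genotypes by a test of the difference itself, the interaction in edgeR's QL fit (adjusted p under 0.05 over all 17416 genes). The KO log2 fold change exceeded the WT one for Mmp9 by 1.48 (adjusted p 0.0044) and for Mmp3 by 0.45 (adjusted p 0.00339). It was the more negative for Mmp11 (-0.94, adjusted p 0.000115), Mmp2 (-0.70, adjusted p 2.03e-05), Mmp23 (-0.68, adjusted p 0.000133), Mmp19 (-0.51, adjusted p 0.00498) and Mmp14 (-0.30, adjusted p 0.00232). Mmp2 and Mmp11 shared a pattern in which WT control libraries stood below the other three groups. Mmp9 was the only one of the 7 whose KO senescent libraries stood above all others while the WT response did not pass.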

How the results depend on the processing

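The interaction passed for the same 7 genes in every alternative that tested a difference from 0, including DESeq2 and each left-out library. Without the fold threshold the numbers of genes called were 5 higher and 3 lower in WT, 2 and 5 for the interaction, 6 higher for KO against WT in control cells, and 2 and 1 in senescent cells. Under glmTreat, which tests against a log2 fold change of 1, 1 gene was called lower in KO cells, and 0 were called higher for the interaction or for KO against WT in senescent cells, so Mmp9 was no longer called there. With 1 library left out, genes called lower ranged from 0 to 1 in WT, from 1 to 2 in KO and from 0 to 1 for the interaction. Genes lower in KO senescent than WT senescent cells ranged from 0 to 2, and numbered 2 (Mmp23 and Mmp19) on total counts, without a filter, with the replicate block over all groups and in a fit on the 6 senescent libraries. Total counts moved the median senescence change of all genes by 0.17 in WT and 0.15 in KO cells.

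Signs turned only for differences that had not passed. Mmp10 in WT became 0.05 on total counts, and KO against WT control cells became -0.01 on total counts and -0.03 with the replicate block. Over the left-out libraries Mmp10 ranged from -0.44 to 0.05 in WT and from -0.22 to 0.25 between control cells, Mmp13 from -0.19 to 0.72 for the interaction and from -0.25 to 0.66 between control cells, and, between senescent cells, Mmp2 from -0.00 to 0.12 and Mmp17 from -0.08 to 0.33. The cause was not tested.

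Deviations of same-numbered libraries correlated by -0.125 to 0.127, so no pairing by number was seen. With 3 libraries per group this cannot exclude that same-numbered libraries share an animal or culture. The replicate block moved no other call of the 10 genes. Mmp9, Mmp10, Mmp13 and Mmp17 rest on 11 to 136 counts per library. Differences within their SE were not detectable with these counts and 3 libraries per group. Some estimates larger than their SE did not pass either, such as Mmp17 in KO against WT control cells (0.48, SE 0.24, adjusted p 0.201).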
